A study of Homo sapiens with 6 samples.

Results

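The fibrinogen chain genes FGA, FGB and FGG and the fibrinogen-like genes FGL1 and FGL2 were taken from the deposited table by their gene names, which gave 5 of 35856 listed genes. The libraries came from HCCLM3, an established human hepatocellular carcinoma cell line, and were of 2 groups with 3 libraries each. Cells of the LINC00862 group had been transfected with a vector carrying the long non-coding RNA LINC00862, and cells of the NC group with the empty vector. The labels name no clone, selection step or time after transfection, and they do not say that the libraries came from separate cultures, so that p-values measure only the spread between these libraries, which may be technical. The comparison asked which RNAs changed when LINC00862 was overexpressed, and RNA was sequenced after capture of polyadenylated transcripts.

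Fibrinogen is the soluble plasma protein that thrombin turns into fibrin, the mesh of a blood clot. It is a hexamer of paired Aα, Bβ and γ chains, which FGA, FGB and FGG encode, and hepatocytes assemble the chains in the endoplasmic reticulum before secretion. Synthesis in liver rises in the acute-phase response, driven by interleukin-6 and glucocorticoids. FGL1 and FGL2 carry the fibrinogen-related domain but do not form clots: FGL1 is secreted by hepatocytes and is a ligand of the T cell receptor LAG3, and FGL2 is made as a membrane-bound enzyme that cleaves prothrombin and as a secreted form that binds Fcγ receptors.

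Total counts per library lay between 58241123 and 68229070, and 20741 genes passed the filter on low counts. The counts of LINC00862 were 11, 21 and 6 in NC and 145, 121 and 76 in LINC00862, with a log2 fold change of 3.22 (SE 0.53, adjusted p = 0.000583 by the quasi-likelihood test of edgeR, Benjamini-Hochberg). The Spearman correlation of FPKM across genes, which are not independent replicates, was 0.896 to 0.909 within groups and 0.754 to 0.767 between them. Of the tested genes, 64.2% were called at an adjusted p under 0.05, 34.4% as higher in LINC00862 and 29.8% as lower, and the FPKM of the groups did not overlap in 71.1%. A call alone therefore says little about any single gene here. A log2 fold change of at least 8 together with a call was found in 3.77% of tested genes.

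FGA, FGB, FGG and FGL1 were low in NC and were among the abundant transcripts in LINC00862, while FGL2 was low in both groups. The mean FPKM in LINC00862 was 298 times that in NC for FGA, 314 times for FGB, 323 times for FGG and 344 times for FGL1. These are ratios of means over 3 libraries each, and FPKM, a fragment count corrected for transcript length and sequencing depth, lets levels be compared between the genes. Summed over all genes, FPKM was 296336 to 354830 in NC and 420733 to 512467 in LINC00862, so the groups have no common total. The folds fitted by edgeR with its own scaling were 335 for FGA, 354 for FGB, 359 for FGG and 377 for FGL1.

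The FPKM of FGA, which encodes the Aα chain, was 2.83, 2.73 and 2.47 in NC and 888, 779 and 721 in LINC00862. All 3 LINC00862 libraries stood far above all 3 NC libraries, and the groups did not overlap. The mean was 2.67 ± 0.188 (SD, n = 3) in NC and 796 ± 85.1 (SD, n = 3) in LINC00862, with a log2 fold change of 8.39 (SE 0.21, adjusted p = 2.63e-08, edgeR with Benjamini-Hochberg adjustment). FGA was the most abundant of the 5 genes in every library. Among all listed genes its rank by FPKM was 8712, 8323 and 8517 in NC and 38, 39 and 45 in LINC00862.

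FGB, which encodes the Bβ chain, had an FPKM of 1.88, 1.69 and 1.68 in NC and 598, 529 and 525 in LINC00862. The groups again lay far apart, and within each group the first library was the highest. The mean was 1.75 ± 0.115 (SD, n = 3) in NC and 550.4 ± 41.3 (SD, n = 3) in LINC00862, and the log2 fold change was 8.47 (SE 0.21, adjusted p = 2.63e-08, edgeR with Benjamini-Hochberg adjustment). The counts behind these values were 546, 485 and 492 in NC and 199889, 152678 and 153773 in LINC00862.

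FGG, which encodes the γ chain, had an FPKM of 1.86, 2.05 and 1.92 in NC and 705, 635 and 539.8 in LINC00862. No NC library came near the lowest LINC00862 library. The mean was 1.94 ± 0.0963 (SD, n = 3) in NC and 627 ± 83.0 (SD, n = 3) in LINC00862, and the log2 fold change was 8.49 (SE 0.22, adjusted p = 2.63e-08, edgeR with Benjamini-Hochberg adjustment). Another listed gene, AC107385 (ENSG00000287770), lies inside FGG on the same strand, and it had 0 counts in NC and 99 in LINC00862 over all libraries, against 475214 for FGG in LINC00862.

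FGL1 had an FPKM of 0.508, 0.535 and 0.569 in NC and 199, 178 and 177 in LINC00862. It was lower than each fibrinogen chain in every library, and its groups did not overlap. The mean was 0.537 ± 0.0305 (SD, n = 3) in NC and 185 ± 12.3 (SD, n = 3) in LINC00862, and the log2 fold change was 8.56 (SE 0.20, adjusted p = 2.63e-08, edgeR with Benjamini-Hochberg adjustment). Of the 20741 tested genes, ordered from the largest rise, FGL1 ranked 507, FGG 545, FGB 554 and FGA 584 by fitted fold change, so that many genes had a larger one. The fold changes of these 4 genes lay within 1 standard error of each other.

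FGL2 had an FPKM of 0.169, 0.209 and 0.130 in NC and 0.0630, 0.0974 and 0.0985 in LINC00862, from counts of 52, 63 and 41 and of 23, 31 and 32. The lowest NC library was above the highest LINC00862 library, but all values were low. The mean was 0.169 ± 0.0393 (SD, n = 3) in NC and 0.0863 ± 0.0202 (SD, n = 3) in LINC00862, and the log2 fold change of -0.74 (SE 0.44) did not pass the test (adjusted p = 0.167, edgeR with Benjamini-Hochberg adjustment). On log2(FPKM + 0.1), limma-trend gave an adjusted p of 0.0342 for FGL2, so its call depends on the test. FGL2 lies within CCDC146, which is on the opposite strand and fell from 0.660 ± 0.181 to 0.0372 ± 0.0253 FPKM (SD, n = 3, log2 fold change -3.90, adjusted p = 0.000138, edgeR with Benjamini-Hochberg adjustment). AC007000 (ENSG00000259628), on the same strand as CCDC146, also overlaps FGL2 and had 5 counts in NC and 0 in LINC00862 over all libraries. Whether reads were counted by strand is not given in the sources used here. Reads of FGL2 and of these overlapping genes therefore cannot be told apart with certainty, and their part in the FGL2 values was not tested.

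Permuting the libraries exactly, two-sided, on the FPKM of each of the 5 genes returned p = 0.1, which is the lowest value possible with 3 against 3. In bulk RNA, fewer cells that express a gene and less of its RNA per cell cannot be told apart.

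**Figure D1:**
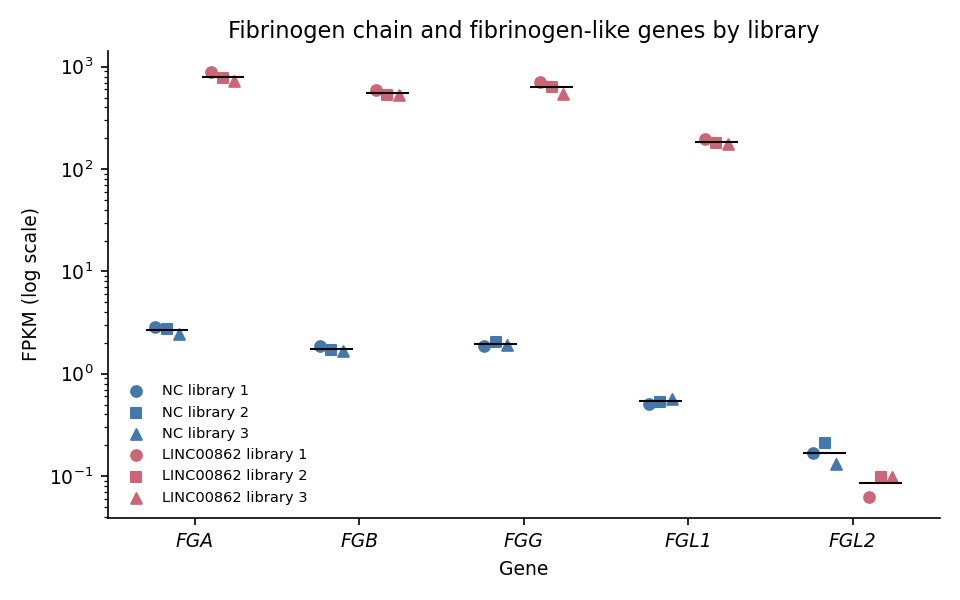
FPKM on a log scale of the 5 genes in each of the 6 libraries, with blue for NC, red for LINC00862, a symbol for each library number and a line at the group mean. FGA, FGB, FGG and FGL1 lie between 0.508 and 2.83 in NC and between 177 and 888 in LINC00862, while FGL2 stays below 0.21 in all libraries.

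No difference in the proportions of the chains was detectable, although their levels lay far apart. The summed counts of FGA, FGB and FGG were 1727, 1669 and 1602 in NC, or 0.00290%, 0.00287% and 0.00270% of all counts. In LINC00862 they were 659846, 505172 and 473271, or 0.967%, 0.859% and 0.803%. The chains thus went from a trace to nearly 1 read in 100, and the first LINC00862 library held the largest share.

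Of the summed FPKM of the 3 chains, FGA made up 42.0% ± 1.20 in NC and 40.3% ± 0.220 in LINC00862 (SD, n = 3 for these and the following shares). FGB made up 27.5% ± 1.26 and 27.96% ± 1.23, and FGG 30.5% ± 1.94 and 31.7% ± 1.29. FGA was therefore the leading chain in both groups, with FGB and FGG closer to each other.

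The log2 ratio of FGA to FGG was 0.61, 0.41 and 0.36 in NC and 0.33, 0.29 and 0.42 in LINC00862. The groups overlapped, and the difference of the means was -0.11 (exact two-sided permutation test, p = 0.3, 0.45 after Benjamini-Hochberg adjustment over the 3 ratios). The log2 ratio of FGB to FGG was 0.018, -0.28 and -0.19 in NC and -0.24, -0.26 and -0.041 in LINC00862. These also overlapped, with a difference of -0.03 (exact permutation p = 0.7, adjusted 0.7) that changed sign when NC library 1 (0.05) or LINC00862 library 2 (0.01) was left out. The log2 ratio of FGA to FGB was 0.59, 0.69 and 0.56 in NC and 0.57, 0.56 and 0.46 in LINC00862, with a difference of -0.08 (exact permutation p = 0.3, adjusted 0.45). No difference in the chain ratios was detectable, but with a smallest possible p of 0.1 the test cannot show that they are equal.

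**Figure D2:**
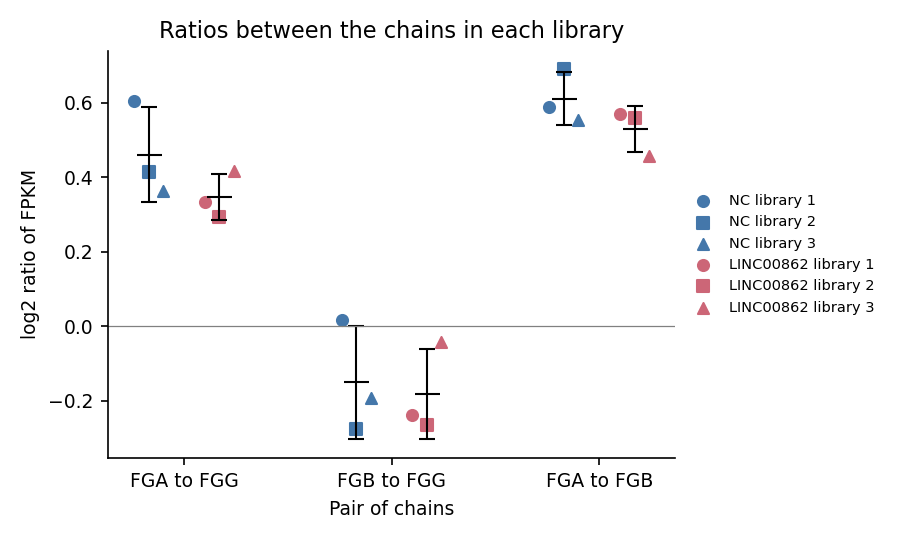
The log2 ratio of FPKM between pairs of fibrinogen chains in each library, with NC in blue and LINC00862 in red, and the mean and SD of each group in black. For each pair the groups overlap, with differences of -0.11, -0.03 and -0.08.

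The low level in NC stood at a nearly fixed share of the level in LINC00862. The NC mean was 0.336% of the LINC00862 mean for FGA, 0.318% for FGB, 0.310% for FGG and 0.291% for FGL1. Taken by single NC libraries, the shares lay between 0.275% and 0.356%. Of the 293 genes with a mean of at least 100 FPKM in LINC00862, which include these 4, the median NC share was 65.1%, 18 were under 0.5% with these 4 among them, and the lowest was 0.263% for FXYD4. Of the 60 genes with at least 500 FPKM in LINC00862, FGG had the lowest share. In the reverse direction, of 357 genes with at least 100 FPKM in NC, 5 were under 0.5% of their NC level in LINC00862, and the lowest was AXL at 0.304%. This comparison was chosen after the values were seen, and whether reads of one group's libraries reached those of the other was not tested.

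**Figure D3:**
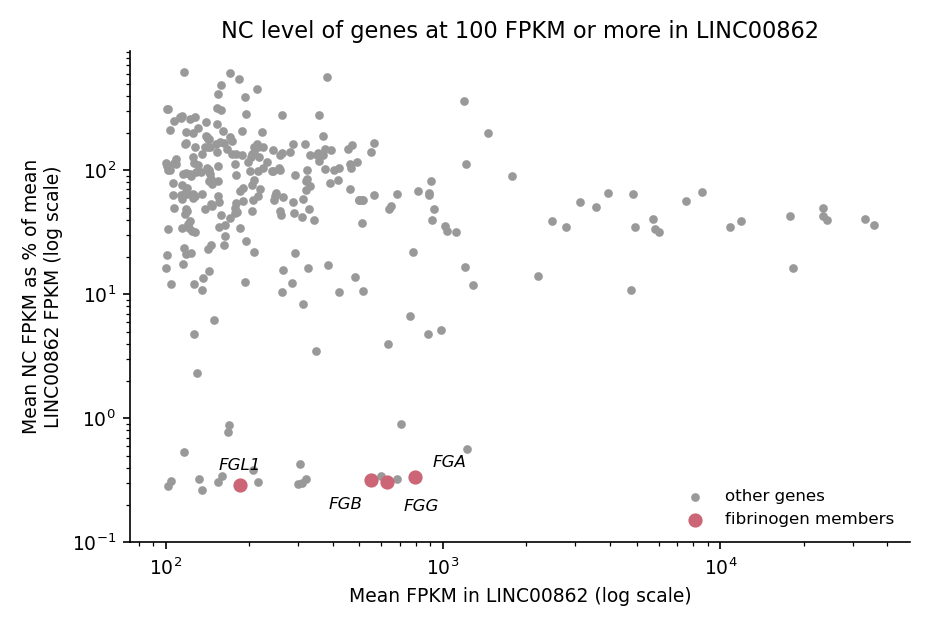
For each of the 293 genes with at least 100 FPKM in LINC00862, the mean NC FPKM as a percentage of the mean LINC00862 FPKM is plotted against the mean LINC00862 FPKM, both on log scales. FGA, FGB, FGG and FGL1 in red lie between 0.291% and 0.336%, in the band along the lower edge, whereas the median of all plotted genes is 65.1%.

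The 3 chain genes are neighbours in the genome. In the coordinates of the table (hg38), FGB (ENSG00000171564) lies at 4:154563011-154572807 on the plus strand, FGA (ENSG00000171560) at 4:154583128-154590745 on the minus strand and FGG (ENSG00000171557) at 4:154604134-154612849 on the minus strand. The cluster spans 49.8 kb, with 10.3 kb between FGB and FGA and 13.4 kb between FGA and FGG. FGL1 (ENSG00000104760) lies elsewhere, at 8:17864380-17910365 on the minus strand, and FGL2 (ENSG00000127951) at 7:77193369-77199848 on the minus strand. All 5 are protein-coding genes.

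Of the nearest tested genes on each side of the cluster, the 3 beside FGB fell and the 3 beside FGG rose. Over all tested genes, 29.8% were called lower and 34.4% higher. PLRG1, a spliceosome component 12.6 kb from FGB, fell from 12.6 ± 1.19 to 7.56 ± 0.895 FPKM (SD, n = 3, log2 fold change -0.57, adjusted p = 0.00522, edgeR with Benjamini-Hochberg adjustment). LRAT, the retinol-esterifying enzyme 14.1 kb from FGG on the other side, rose from 0.00530 ± 0.00459 to 0.240 ± 0.0717 FPKM (log2 fold change 5.60, adjusted p = 0.000169, edgeR with Benjamini-Hochberg adjustment), a level far below that of the chains. The other 4 lay much farther out. SFRP2, 774 kb away, and AC079298 (ENSG00000280241), 263 kb away, fell, the latter to 0 counts in LINC00862. MAP9 (log2 fold change 1.34), 730 kb away, and GUCY1A1 (0 counts in NC), 1054 kb away, rose. At such distances these genes do not describe the immediate surroundings of the cluster. Around FGL1, MTUS1 (log2 fold change 2.03), ASAH1 (2.15) and both genes named AC027117 (4.60 for ENSG00000253671 and 5.35 for ENSG00000253944) rose, PCM1 (-1.25) fell and AC124242 was not called. AC087273 (ENSG00000253215), within FGL1 on the opposite strand, had 5 counts in NC and 1 in LINC00862 over all libraries. Around FGL2, SPDYE17, AC007000 (ENSG00000213542) and FAM185BP on one side were not called, and on the other GSAP (log2 fold change 1.64) and APTR (1.93) rose and PTPN12 (-0.86) fell.

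Because the 3 chain genes moved together and FGL2 did not, the 250 bases before the start site are shown for those 4 genes, from the RefSeq promoter table (GRCh38.p14). FGL1, which also rose, is not shown. They read 5′ to 3′ along the gene, and capitals mark matches on either strand to an interleukin-6 response element (CTGGGAA) or a C/EBP motif (TTNNGNAAT). C/EBP proteins are transcription factors that drive acute-phase genes in liver.
FGA promoter, chr4:154590743-154590992, minus strand: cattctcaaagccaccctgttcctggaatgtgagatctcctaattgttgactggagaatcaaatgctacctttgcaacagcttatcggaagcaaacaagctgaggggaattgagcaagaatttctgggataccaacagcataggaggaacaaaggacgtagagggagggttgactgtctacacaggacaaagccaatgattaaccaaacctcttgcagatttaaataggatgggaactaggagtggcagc
FGB promoter, chr4:154562761-154563010, plus strand: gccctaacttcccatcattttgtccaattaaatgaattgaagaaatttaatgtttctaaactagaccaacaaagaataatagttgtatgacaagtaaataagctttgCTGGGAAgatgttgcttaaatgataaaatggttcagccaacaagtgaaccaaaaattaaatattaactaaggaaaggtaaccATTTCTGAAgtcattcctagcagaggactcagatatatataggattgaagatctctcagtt
FGG promoter, chr4:154612657-154612906, minus strand: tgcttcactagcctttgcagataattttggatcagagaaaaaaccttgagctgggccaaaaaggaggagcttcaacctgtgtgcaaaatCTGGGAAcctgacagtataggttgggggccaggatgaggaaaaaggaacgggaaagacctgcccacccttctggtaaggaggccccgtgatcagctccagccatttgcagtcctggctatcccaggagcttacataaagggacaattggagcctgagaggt
FGL2 promoter, chr7:77199820-77200069, minus strand: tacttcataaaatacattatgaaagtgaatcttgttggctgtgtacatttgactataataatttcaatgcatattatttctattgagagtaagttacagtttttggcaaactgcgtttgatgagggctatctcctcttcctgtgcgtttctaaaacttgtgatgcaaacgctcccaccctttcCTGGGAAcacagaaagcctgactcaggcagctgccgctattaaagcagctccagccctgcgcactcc

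The FGA window held no exact match to either motif. It did hold ctgggat and ttgagcaag, which each differ from 1 of the searched motifs at the last base only. Counted back from the start site, the FGB window held an interleukin-6 element at bases -143 to -137 and a C/EBP match at -61 to -53, the latter on the reverse strand. The FGG and FGL2 windows each held an interleukin-6 element, at -161 to -155 and at -67 to -61. The interleukin-6 element was thus in FGL2 as well as in chain genes. Neither motif had an exact match in all 3 chain genes, which depends on the letters chosen.

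Over all 35116 promoter windows of this length, 9.15% held the interleukin-6 element and 9.85% the C/EBP motif on either strand. The exact letters TATAAA, in 10.7% of promoters, were in none of the 4 shown. Variants of this box, such as the tatatata in the FGB window, were not searched. The G and C content was 45.2% for FGA, 32% for FGB, 50.8% for FGG and 42% for FGL2, against a mean of 57.2% over all promoters. The start site of RefSeq lay 193 bases inside FGG as placed by the table, and at most 29 bases from the table's start for the others. Most of the FGG window, with its interleukin-6 element, therefore lies within the gene in the table's coordinates. RefSeq lists 2 promoters for FGB, of which the nearer one to the table's gene start is shown. A match describes letters and not binding.

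Transcription factors known to act on liver promoters such as these were higher in LINC00862. Of 11 such factors, all tested, 10 rose, 0 fell and USF1 was not called (log2 fold change -0.08), against 34.4% of all tested genes called higher. The median log2 fold change was 4.09, or 2.70 with genes at 0 in NC set to their lower bound, against 0.11 for all tested genes. The 4.09 was the value of HNF4A and the 2.70 the bound of ONECUT1, which averaged only 0.0447 and 0.0469 FPKM in LINC00862. NR5A2 and ONECUT1 had 0 counts in NC and were at least 54.4-fold and 6.51-fold higher in LINC00862, taking 3 counts per library as the floor. Their means in LINC00862 were 0.323 ± 0.0895 and 0.0469 ± 0.00836 FPKM (SD, n = 3). FOXA2 rose from 0.00706 ± 0.0122 to 6.22 ± 0.990 FPKM (SD, n = 3, log2 fold change 9.70) and FOXA3 from 0.0165 ± 0.0148 to 1.55 ± 0.317 FPKM (log2 fold change 6.64). The C/EBP factors, which drive acute-phase genes, were already expressed in NC in the cases of CEBPB (13.8 ± 0.225 FPKM) and CEBPD (14.9 ± 0.693 FPKM), with log2 fold changes of 1.24 and 1.41. HNF4A, the central hepatocyte factor, rose but was at most 0.0594 FPKM in LINC00862.

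The interleukin-6 and glucocorticoid signal did not move one way. Of 13 tested genes of 14 in the list, 4 rose, 4 fell and 5 were not called. The share called was 61.5%, near the 64.2% of all tested genes, and the median log2 fold change was 0.16. The split depended on the scaling, with 1 higher and 5 lower under library size only and under limma-trend on log2(FPKM + 1), and 2 higher and 5 lower on log2(FPKM + 0.1). IL6R, the receptor chain that binds interleukin-6, rose from 0.804 ± 0.364 to 10.4 ± 0.533 FPKM (SD, n = 3, log2 fold change 3.88, adjusted p = 3.55e-06, edgeR with Benjamini-Hochberg adjustment). IL6ST, its signalling partner gp130, fell with a log2 fold change of -1.81, IL6 itself with -3.80, PIAS3, an inhibitor of STAT3, with -2.87, and NR3C1, the glucocorticoid receptor, with -0.89. LIFR (1.05), STAT3 (0.79) and OSMR (0.69) rose on the same scale. SOCS3, a feedback target of the pathway, was 13.55 ± 0.903 FPKM in NC and 13.35 ± 0.169 in LINC00862 and was not called (log2 fold change 0.16, adjusted p = 0.318, edgeR with Benjamini-Hochberg adjustment).

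Other acute-phase plasma proteins were mostly higher. Of 13 tested genes of 20 in the list, 9 rose, 1 fell and 3 were not called, against 34.4% of all tested genes called higher, and the median log2 fold change was 4.87, or 3.15 with CRP at its lower bound. AGT, the precursor of angiotensin, rose from 2.05 ± 0.341 to 600.0 ± 34.6 FPKM (SD, n = 3, log2 fold change 8.37), a level between those of FGB and FGG. CP, the copper carrier ceruloplasmin, rose from 0.116 ± 0.0153 to 33.9 ± 4.23 FPKM (log2 fold change 8.29), and C4BPA, a complement inhibitor, from 0.112 ± 0.0370 to 30.6 ± 3.34 FPKM (log2 fold change 8.22). CRP had 0 counts in NC and was at least 8.85-fold higher, at 0.192 ± 0.107 FPKM. SERPINA1, the main protease inhibitor of plasma, went the other way, from 1.29 ± 0.216 to 0.0950 ± 0.0428 FPKM (log2 fold change -3.55, adjusted p = 3.20e-05, edgeR with Benjamini-Hochberg adjustment).

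Genes for the folding and export of secreted proteins were higher by smaller amounts. Of 13 tested genes, 9 rose, 0 fell and 4 were not called, against 34.4% of all tested genes called higher, and the median log2 fold change was 0.97. The share called in either direction, 69.2%, was near the 64.2% of all tested genes. LMAN1 and MCFD2, which together carry clotting factors out of the endoplasmic reticulum, rose with log2 fold changes of 1.96 and 1.58. The protein disulfide isomerase PDIA3 and its relative ERP44 each rose by 1.41 on that scale, from 131 ± 7.07 to 311 ± 31.9 FPKM and from 10.3 ± 0.610 to 24.3 ± 1.32 FPKM (SD, n = 3).

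The genes that act with fibrinogen in clotting moved in both directions. Of 14 tested genes of 20, 6 rose, 4 fell and 4 were not called. The share called was 71.4%, against 64.2% of all tested genes, and the median log2 fold change was 0.43. F7, the factor that starts the extrinsic pathway, rose from 0.0271 ± 0.0278 to 5.43 ± 0.269 FPKM (SD, n = 3, log2 fold change 7.68), whereas F3, the tissue factor that binds it, fell from 92.4 ± 12.96 to 5.41 ± 0.496 FPKM (log2 fold change -3.91). F5 (5.84), TFPI2 (2.85) and F10 (2.17) rose as log2 fold changes, and PROC (-2.03), PROS1 (-1.83) and F8 (-0.68) fell. F2, which encodes prothrombin, was at most 0.0837 FPKM in any library and was not called.

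Most of the listed genes of fibrinolysis, which breaks the clot down, were lower. Of 10 tested genes of 12, 0 rose, 8 fell and 2 were not called, against 29.8% of all tested genes called lower, and the median log2 fold change was -2.22. PLAU, the urokinase that activates plasminogen, fell from 67.8 ± 3.06 to 0.472 ± 0.166 FPKM (SD, n = 3, log2 fold change -7.00, adjusted p = 9.83e-08, edgeR with Benjamini-Hochberg adjustment), and PLAT, the tissue-type activator, had a log2 fold change of -4.60. The list also holds inhibitors of these activators, and SERPINE2 (-3.00) and SERPINB2 (-2.32) fell as well. So did ANXA2 (-2.97), a cell-surface site of plasminogen activation. Because activators and inhibitors are mixed, the counts give the pathway no direction.

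Receptors of fibrinogen and of the FGL proteins moved in both directions. Of 14 tested genes of 15, 2 rose, 6 fell and 6 were not called, so that 57.1% were called against 64.2% of all tested genes, and the median log2 fold change was -0.54. LAG3, the receptor of FGL1, fell from 1.59 ± 0.458 to 0.0732 ± 0.0438 FPKM (SD, n = 3, log2 fold change -4.19). ITGB3 (-5.22) and ITGA5 (-3.06), integrin chains that bind fibrinogen or fibronectin, and ASGR1 (-2.37), a liver receptor for glycoproteins, fell too, and CDH5 (3.63) and ITGA2B (1.48) rose. The Fcγ receptors FCGR2B and FCGR3A, to which FGL2 binds, were not called and stayed below 0.18 FPKM in every library.

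Other genes with a fibrinogen-related domain showed no common direction. Of 12 tested genes of 19, 4 rose, 3 fell and 5 were not called. The share called was 58.3%, against 64.2% of all tested genes, and the median log2 fold change was -0.19. ANGPT1, a ligand of the endothelial receptor TEK, rose from 0.00247 ± 0.00427 to 1.43 ± 0.391 FPKM (SD, n = 3, log2 fold change 9.01), and TNC, the matrix protein tenascin-C, fell from 13.5 ± 4.43 to 0.213 ± 0.0369 FPKM (log2 fold change -5.79). ANGPTL1 (4.06) and FIBCD1 (2.07) rose, ANGPTL2 (-2.51) and TNXB (-1.88) fell, and TNR, with 0 counts in NC, was at least 9.36-fold higher.

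**Figure D4:**
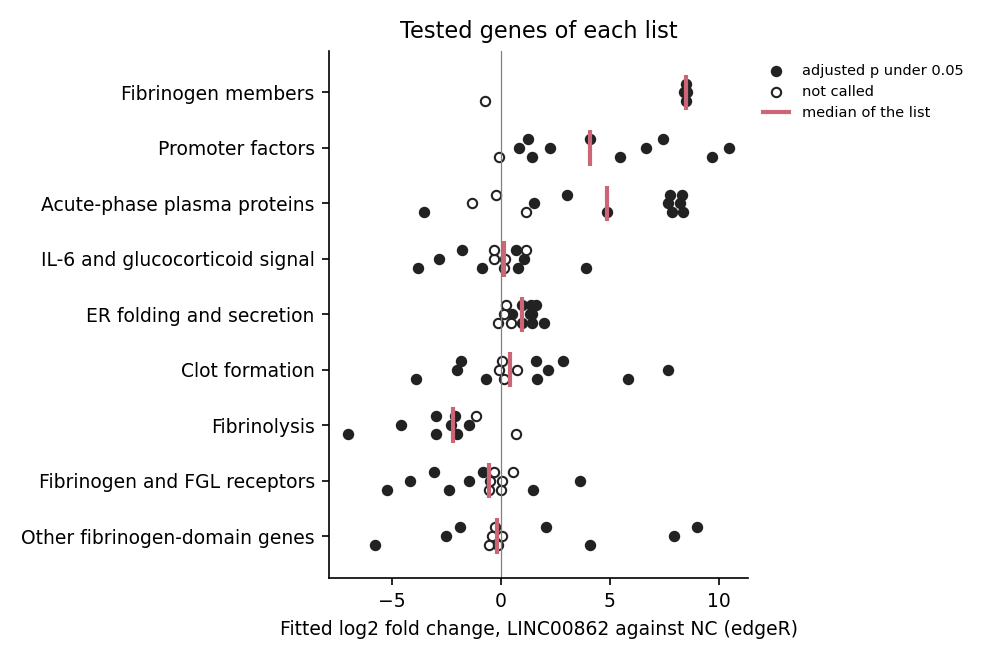
Fitted log2 fold change (LINC00862 against NC) of each tested gene, by list, with filled points for an adjusted p under 0.05 in edgeR, open points for genes not called and a red line at the list median. Below the members, the medians run from -2.22 for fibrinolysis to 4.87 for acute-phase plasma proteins, and 4 of the 5 fibrinogen members lie near 8.5 with FGL2 at -0.74. Genes at 0 in NC are drawn at their fitted value, which is no bound.

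Markers of cell types were read beside these values. The label hepatoma was set against hepatocyte markers, of which 7 of 9 tested rose and 2 fell. Of all tested genes, 34.4% were called higher and 29.8% lower. The summed FPKM of the hepatocyte markers was only 1.499 to 2.45 in NC and 15.5 to 21.6 in LINC00862. TF, the iron carrier transferrin, made up most of the LINC00862 sum (15.5 ± 2.86). ALB, the main protein of hepatocytes, was at most 0.0234 FPKM in NC and reached 1.51 ± 0.264 (SD, n = 3) in LINC00862, TTR and AMBP were at 0 in every NC library, and APOA1, APOA2 and APOH were too low to be tested. FGA was therefore above albumin in all 6 libraries. AFP, the classical marker of fetal liver and hepatoma, was 0.104 ± 0.0348 FPKM in NC and at 0 in LINC00862 (at least 7.90-fold lower), while EPCAM in the same list rose from 0.547 ± 0.0819 to 159.8 ± 10.8 FPKM (log2 fold change 8.34).

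The same shares of all tested genes, 34.4% higher and 29.8% lower, stand beside the lists for other cells. Among these lists, 2 of 3 tested intestinal and gastric markers rose. Their sum went from 0.404 to 1.44 in NC to 207 to 234 in LINC00862, nearly all of it TFF1. Fibroblast markers (2 rose, 3 fell, 3 not called) summed to 47.1 to 58.3 in NC and 12.6 to 16.2 in LINC00862. THY1 made up most of the NC sum and fell from 42.2 ± 6.07 to 0.101 ± 0.00758 FPKM (SD, n = 3). COL1A1 rose from 2.43 ± 0.199 to 10.6 ± 2.45 FPKM. Biliary markers (3 rose, 1 fell, 2 not called) summed to 69.7 to 95.9 and 73.6 to 96.2. Most of this was KRT7, which was not called. SOX9 fell from 13.2 ± 2.24 to 0.625 ± 0.130 FPKM, and KRT19 rose from 0.0315 ± 0.0128 to 3.37 ± 0.857 FPKM. Endothelial markers (1 of 6 rose) summed to 1.23 to 1.83 and 4.50 to 5.96, and leukocyte markers (2 of 8 rose) to 4.13 to 4.51 and 10.05 to 15.9. The part of any other cell in the levels of the fibrinogen genes was not tested, and an effect of the vector and cells of unlike origin in the groups cannot be told apart in this design.

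The genes whose pattern over the 6 libraries was most like that of each member were found by the Euclidean distance between centred log2(FPKM + 0.1) values. FGA was nearest to FGB (0.146), FGG (0.226) and FGL1 (0.257), and FGB to FGA (0.146), FGL1 (0.220) and FGG (0.271). FGL1 was nearest to FGB (0.220), FGG (0.234) and FGA (0.257). FGA and FGB were each other's nearest gene, but FGL1 was not among the 3 nearest to FGG. FGG was nearest to CALCA (0.157), the calcitonin gene, AZGP1 (0.222) and FGA (0.226). FGL2 was nearest to GIGYF1 (0.104), GPR135 (0.180) and MBIP (0.181). These distances are descriptions over 6 libraries in 2 groups.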

How the data were processed

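RNA of 6 HCCLM3 libraries had been sequenced after oligo(dT) capture with dUTP marking of the second strand and adapters carrying molecular identifiers. The authors deposited the raw read count of each gene and its FPKM, which is scaled by transcript length and mapped fragments. Their processing notes name cutadapt 1.9, HISAT2 2.0.4, StringTie 1.3.4d, UMI-tools and hg38, with no roles, so whether identifiers were collapsed and strand was used in counting is not given in the sources used here. Either could change counts of abundant or overlapping genes. The sample labels gave the groups and library numbers, and columns were matched by name.

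The deposited counts of all genes were fitted with edgeR 4.0.16 in R 4.3.3 (filterByExpr, TMM, quasi-likelihood test, Benjamini-Hochberg adjustment over 20741 genes, false discovery rate 0.05). Standard errors were derived from the test statistic. FPKM and chain ratios were compared by exact two-sided permutation tests. Folds against a group at 0 used a floor of 3 counts per library and cover counting error only. Lists are described by counts and medians. Named genes are the members, LINC00862, up to 4 largest rises and 4 largest falls per list, defining markers, the 3 nearest tested genes on each side of the cluster and of FGL2, overlapping genes, and the 3 most alike genes per member. SOCS3, USF1, CEBPB, CEBPD, FCGR2B, FCGR3A, F2, SERPINB2, KRT7, FXYD4, AXL and the genes around FGL1 were named after their values were seen. The letters of the motifs searched were taken from general knowledge, and other motifs are not reported here. The members and lists were chosen with earlier results of these data known.

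Alternatives were DESeq2 1.42.0, upper quartile and library-size scaling, a replicate block, every gene with at least 1 count, limma-trend (limma 3.58.1) on log2(FPKM + 1) and log2(FPKM + 0.1), a test against a fold of 2, a false discovery rate of 0.01 and leaving out each library. The fit was also run on simulated data with 193 changed genes among 20063 tested, of which 64.8% were called. In the real data 64.2% of all tested genes were called. The simulation therefore does not show how the fit behaves when so many genes differ. List genes without a row in the table used here were not analysed here, and a few other list genes are not reported here and are in no count or median of a list. Figures were drawn with matplotlib 3.10.9.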

Additional observations from a re-analysis of the deposited data

How the results depend on the processing

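FGA, FGB, FGG and FGL1 were higher and called in each of the 15 alternatives, with log2 fold changes of 7.76 to 8.60, 7.65 to 8.68, 7.73 to 8.70 and 6.91 to 8.77. Leaving out 1 library at a time gave 8.32 to 8.44, 8.42 to 8.53, 8.41 to 8.54 and 8.47 to 8.64. FGL2 had -0.91 to -0.54 when 1 library was left out, and it passed the threshold only in limma-trend, with -0.53 on log2(FPKM + 0.1) (adjusted p = 0.0342) and -0.11 on log2(FPKM + 1) (adjusted p = 0.0406). Over its 15 alternatives the adjusted p ran from 0.0342 to 0.757. The cause was not tested.

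A test against a fold of 2 called 4 interleukin-6 and glucocorticoid genes (1 higher, 3 lower), against 8 in the quasi-likelihood test, since it asks for a larger change. The other lists kept counts within 1.5 times. With 1 library left out, the counts called were 8 to 10 for clotting, 7 to 8 for fibrinolysis, 10 to 12 for acute-phase genes, 7 to 9 for the interleukin-6 list, 10 for promoter factors, 8 to 10 for folding, 8 to 9 for receptors and 6 to 7 for other fibrinogen-domain genes. The chain ratio differences then ran from -0.16 to -0.04 for FGA to FGG, -0.10 to 0.05 for FGB to FGG and -0.11 to -0.04 for FGA to FGB. The FGB to FGG difference turned positive without NC library 1 (0.053) and without LINC00862 library 2 (0.010).

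Scaling moved the centre of all tested genes: their median log2 fold change was 0.11 (TMM), 0.16 (DESeq2), 0.32 (upper quartile) and -0.05 (library size), and of the genes called, 53.6%, 55.1%, 60.4% and 48.5% were higher in LINC00862. Same-numbered libraries showed no shared deviation (correlations -0.05, -0.03 and -0.01), which cannot tell whether they were prepared together. With the replicate block, 12098 genes were called against 13321, the log2 fold changes of FGA, FGB, FGG, FGL1 and FGL2 were 8.39, 8.47, 8.49, 8.56 and -0.75, and no member's call changed. FGL2 had 23 to 63 counts per library.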
